A study of Mus musculus with 30 samples.

Results

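The 10 genes described here encode chaperones and folding enzymes of the endoplasmic reticulum (ER) and regulators of its unfolded protein response (UPR). They were chosen by name: Hspa5, Hsp90b1, Calr, Canx, Pdia3, Pdia4, Pdia6, Xbp1, Herpud1 and Dnajb9. All 10 were matched to 1 gene each of the 56941 in the deposited tables, and all 10 passed the filter on low counts at both times. Their transcripts were counted in mHypoA-2/12 cells, 1 immortalized line derived from the adult mouse hypothalamus. The cells received cannabidiol (CBD) dissolved in DMSO, at 0.325, 0.75, 1.5 or 3 µM, or the DMSO vehicle alone, for 6 h or 24 h. The 30 libraries form 10 groups of 3 and carry the labels A1 to A30. At 6 h, vehicle is A1 to A3, and 3 µM, 1.5 µM, 0.75 µM and 0.325 µM follow in blocks of 3 up to A15. At 24 h, 3 µM is A16 to A18, the blocks of 1.5 µM, 0.75 µM and 0.325 µM run from A19 to A27, and vehicle is A28 to A30.

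Secreted and membrane proteins fold inside the ER, where HSPA5 (BiP), the ER member of the HSP70 family, binds unfolded chains and also holds the stress sensors inactive. When unfolded chains accumulate, the sensors IRE1 (gene Ern1), ATF6 and PERK (gene Eif2ak3) are released. IRE1 splices the mRNA of the transcription factor XBP1, cleaved ATF6 enters the nucleus, and PERK slows translation while favouring that of ATF4. XBP1 and ATF6 raise the transcripts of chaperones, disulfide isomerases and degradation factors, so a joint rise of these transcripts is a common readout of ER stress. The 3′ mRNA-Seq reads used here come from the 3′ end of each transcript and do not separate spliced from unspliced Xbp1.

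Reads on genes ranged from 1839621 to 4420675 per library, and levels are given as CPM (counts scaled to a common total of reads on genes). Log2 fold changes are given ± their standard error (SE). The share of uniquely mapped reads that fell outside genes differed between groups at 24 h, with means of 19.4% to 19.7% at the 3 lower doses, 21.4% at 3 µM and 21.4% in vehicle. At 6 h the vehicle library A3 stood apart, with 17.9% outside genes and 3574833 reads on genes, against 21.4% and 20.8% in A1 and A2. The neuronal marker genes summed to 155 to 223 CPM per library, and the 11 were uneven. Map2, Tubb3, Eno2, Nefl, Nefm and Stmn2 had reads in all 30 libraries, with medians of 14.7 CPM (Stmn2) to 49.4 CPM (Tubb3), Syt1 was at a median of 1.83 CPM, and Rbfox3, Elavl3, Elavl4 and Snap25 were at or near 0 (Snap25 had a read in 2 libraries). Of 11 glial markers, 4 had no read. Mesenchymal markers summed to 9224 to 11879 CPM, with medians from 0.897 CPM for Lum to 3185 CPM for S100a4.

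ER stress targets are known for short promoter elements that bind ATF6 or XBP1, and 6 of the 10 genes carry the exact letters of 1 or more of them close to their start site. The windows are those of RefSeq on GRCm38.p6, 300 bases that span the start site and lie mostly upstream of it, 1 for each of the 10 genes. The ER stress element (ERSE, CCAAT, any 9 bases, CCACG, searched on both strands) was found in Hspa5, Hsp90b1, Calr, Canx and Pdia6, and in 0.119% of all 32851 windows of the same length. ERSE-II (ATTGG, any base, CCACG) was found in Herpud1 and in 0.0365% of all windows. The core of the UPR element (TGACGTG followed by G or A) was found in Hspa5 and in 1.12% of all windows. Any of the 3 was present in 1.26% of all windows, and in none of the windows of Pdia3, Pdia4, Xbp1 and Dnajb9. The stretches below are shown because 6 of the 10 genes carry 1 or more of them. The genes were chosen as ER stress genes, and the elements are known from such genes. Their presence here is therefore not independent of the choice, and the shares over all windows are a description only. Each is written on the strand of its gene with 15 bases on either side, and capitals mark the matching letters; in Calr and in the second stretch of Hsp90b1 the element lies on the opposite strand. A match describes the letters only and is not evidence of binding.
Hspa5 ERSE, chr2:34772010-34772058, plus strand: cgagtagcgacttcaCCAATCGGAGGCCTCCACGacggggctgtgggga
Hspa5 UPR element core, chr2:34771918-34771955, plus strand: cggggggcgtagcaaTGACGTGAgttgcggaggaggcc
Hsp90b1 ERSE, chr10:86705623-86705671, minus strand: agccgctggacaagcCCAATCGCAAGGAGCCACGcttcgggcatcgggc
Hsp90b1 ERSE, chr10:86705518-86705566, minus strand: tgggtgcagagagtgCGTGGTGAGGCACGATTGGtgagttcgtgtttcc
Calr ERSE, chr8:84847060-84847108, minus strand: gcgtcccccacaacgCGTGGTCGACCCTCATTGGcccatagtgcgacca
Canx ERSE, chr11:50325785-50325833, minus strand: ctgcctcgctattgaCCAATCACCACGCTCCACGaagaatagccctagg
Pdia6 ERSE, chr12:17266476-17266524, plus strand: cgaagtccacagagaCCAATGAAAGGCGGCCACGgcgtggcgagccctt
Herpud1 ERSE-II, chr8:94386362-94386402, plus strand: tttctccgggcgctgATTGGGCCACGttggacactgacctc

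The first comparison asked whether CBD changed these transcripts within 6 h. None of the 10 transcripts passed an FDR of 0.1 with the 4 doses combined, by edgeR's quasi-likelihood test and Benjamini-Hochberg adjusted p-values (FDR) over 12012 genes. Of all genes, 0.749% passed. At an unadjusted p under 0.05 there were 3 of the 10 (Pdia4, Herpud1 and Dnajb9), and 10.3% of all genes. The chaperone that reports ER stress most directly, Hspa5, stood at 5169.5, 5559 and 3956 CPM in the vehicle libraries A1 to A3. It stood at 4706, 4959 and 4925 CPM in the 3 libraries of 3 µM. The vehicle libraries were spread more widely than those of 3 µM and enclosed them, and the log2 fold change over the 4 doses was −0.00086 (95% interval −0.22 to 0.22). The same interval was −0.23 to 0.17 for Hsp90b1, the ER member of the HSP90 family, and −0.11 to 0.30 for Calr, the lectin chaperone calreticulin. For Canx, which encodes its membrane-bound relative calnexin, it was −0.19 to 0.27, and for Pdia3, whose isomerase works with both lectins, −0.16 to 0.27. Pdia6, another disulfide isomerase, had an interval of −0.15 to 0.35 and the transcription factor Xbp1 −0.48 to 0.42.

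Pdia4, a disulfide isomerase, was at 106, 105 and 46.95 CPM in A1 to A3, and A3 alone was low. At 0.325 µM it was at 97.2, 153 and 147 CPM, at 0.75 µM at 133, 136 and 90.7 CPM and at 1.5 µM at 101, 102 and 198 CPM. These 9 libraries overlapped the pair A1 and A2, and A9 at 1.5 µM was the highest of all. At 3 µM it was at 90.3, 89.1 and 77.99 CPM, below each of the 9 libraries of the lower doses, of which the lowest was at 90.7 CPM. Groups that did not overlap were found for 1.54% of all genes in that comparison. Its log2 fold change over the 4 doses was 0.46 ± 0.22 (edgeR FDR 0.466), and without A3 it was 0.14. The level of Pdia4 went with the share outside genes among the 6 h libraries, as the plot of level against that share shows. With this share in the model the log2 fold change was 0.61 (edgeR FDR 0.00453), while without a filter on low counts it was 0.48 (FDR 0.0774). The part of the share in the difference was not tested. Against the 3 lower doses, 3 µM had a log2 fold change of −0.58 ± 0.22 (p 0.0141, edgeR FDR 0.905), and 0% of all genes passed in that comparison.

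Herpud1 and Dnajb9, which act around ER-associated degradation, lay lower with CBD at 6 h without passing the threshold. Herpud1 encodes a membrane protein of the degradation complex and was at 58.4, 61.7 and 70.3 CPM in vehicle. It was at 47.02, 43.1 and 51.9 CPM at 0.75 µM, where all 3 libraries lay below all 3 of vehicle, a separation that 11.7% of all genes showed in the same comparison. At 0.325 µM and 1.5 µM its libraries also lay below those of vehicle (groups did not overlap for 10.7% and 11.6% of all genes), while at 3 µM (47.6, 60.1 and 61.5 CPM) they overlapped. Its log2 fold change over the 4 doses was −0.28 ± 0.13 (edgeR FDR 0.466). Dnajb9, an HSP40 partner of HSPA5, was at 25.9, 21.6 and 37.9 CPM in vehicle and at 19.7, 24.7 and 22.9 CPM at 3 µM, with A3 the highest of the 30 libraries. Its log2 fold change was −0.52 ± 0.20 (edgeR FDR 0.33) over the 4 doses and −0.23 without A3. Dnajb9 had 21 to 138 reads per library, which limits the precision of its values. The comparisons of single doses share the same 3 vehicle libraries. Among the 4 doses at 6 h, none of the 10 differed at an unadjusted p under 0.05, against 3.76% of all genes.

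**Figure D1:**
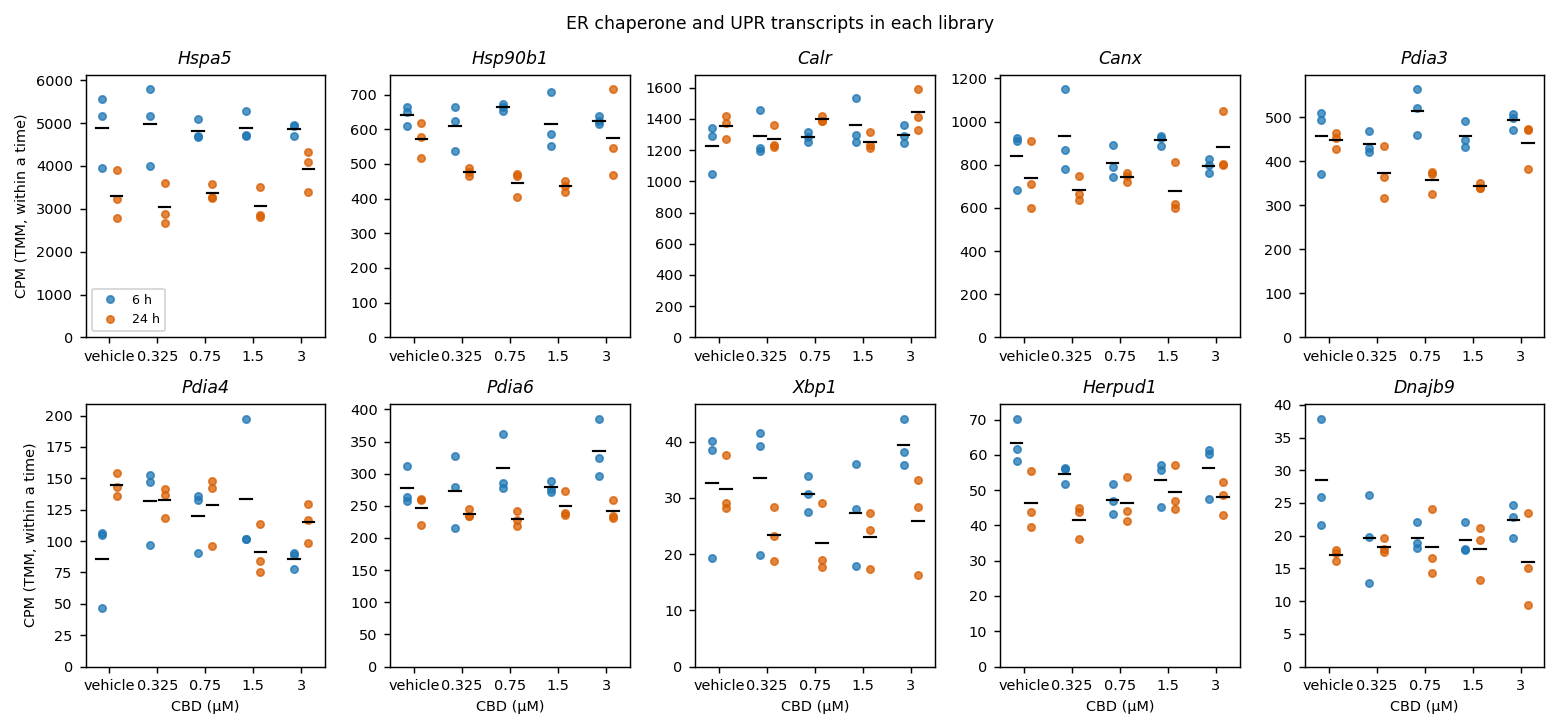
Level of each transcript in CPM (normalized within a time) against the dose of CBD in µM. Each point is a library at 6 h (blue) or 24 h (orange) and each bar the mean of 3. Hspa5 at 24 h lies between 2657 and 4328 CPM and at 6 h between 3956 and 5787 CPM, and Pdia4 in the vehicle at 6 h has 1 library at 46.95 CPM.

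The same comparison was made after 24 h. None of the 10 transcripts passed with the 4 doses together, where 0.107% of 12118 genes did. At an unadjusted p under 0.05 there were 4 of the 10, all lower with CBD, and 6.73% of all genes. These were Pdia3 (log2 fold change −0.25, FDR 0.614), Pdia4 (−0.32, FDR 0.625), Hsp90b1 (−0.25, FDR 0.651) and Xbp1 (−0.43, FDR 0.715), by edgeR. Hspa5 was at 2792, 3901 and 3237 CPM in vehicle, with a log2 fold change of 0.0094 and an interval of −0.20 to 0.22. The intervals of Calr (−0.18 to 0.15), Canx (−0.22 to 0.23) and Pdia6 (−0.23 to 0.13) also enclosed 0, as did those of Herpud1 (−0.27 to 0.28) and Dnajb9 (−0.40 to 0.47).

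The change furthest from vehicle at a single dose was that of Pdia4 at 1.5 µM. Pdia4 was at 143, 154 and 136 CPM in the vehicle libraries A28 to A30 and at 83.8, 114 and 75.5 CPM at 1.5 µM. The groups did not overlap, as was the case for 13.1% of all genes at that dose. The log2 fold change was −0.67 ± 0.16 (p 2.56e-04, edgeR FDR 0.318), and 0.0413% of all genes passed. The call depended on the test, with an FDR of 0.0703 by DESeq2 and 0.0798 by edgeR on those 6 libraries alone. At the other doses Pdia4 was at 118, 142 and 137 CPM (0.325 µM), 142, 148 and 95.9 CPM (0.75 µM) and 117, 98.1 and 129.8 CPM (3 µM), so the levels did not fall in the order of dose. The shift of the effect of CBD on Pdia4 between the times, from above to below vehicle, was −0.78 ± 0.27 on the log2 scale and did not pass (p 0.00539, edgeR FDR 0.403). None of the 10 passed in that test, in which 30 of 12790 genes (0.235%) did.

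The highest dose was then set against the lower doses after 24 h. At 3 µM, 4 chaperone and folding transcripts passed as higher than at the 3 lower doses, while 10.5% of 12118 genes passed in either direction and 6.36% were higher. How these 4 stood against vehicle is given below. Hsp90b1 was at 715, 468 and 545 CPM in A16 to A18. In the 9 libraries of the lower doses its lowest, median and highest levels were 403, 465 and 488 CPM. A16 was well above all others, A18 was above the 9 and A17 lay among them, and the log2 fold change was 0.35 ± 0.10 (edgeR FDR 0.0406). In bulk RNA a different level per cell and a different mix of cells cannot be told apart.

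Hspa5 was at 4328, 3392 and 4085 CPM at 3 µM. In the lower doses its lowest, median and highest levels were 2657, 3253 and 3596 CPM, with A16 and A18 above all 9 and A17 among them. The log2 fold change was 0.32 ± 0.10 (edgeR FDR 0.0656). Canx was at 1049.9, 800.3 and 802 CPM against 601, 719 and 813 CPM as lowest, median and highest. A16 alone was above the 9 libraries, and the log2 fold change was 0.33 ± 0.11 (edgeR FDR 0.0739). Pdia3 was at 474, 383 and 470.01 CPM against 317, 351 and 435 CPM. A16 and A18 were above the 9 and A17 was within their range, and the log2 fold change was 0.31 ± 0.10 (edgeR FDR 0.0554).

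The other 6 transcripts did not pass. Calr had a log2 fold change of 0.14 ± 0.083 (FDR 0.311) by edgeR. Pdia6 was at 259, 235 and 231 CPM at 3 µM, inside the range of the lower doses, and its interval was −0.17 to 0.21. The interval of Pdia4 was −0.28 to 0.26. Those of Xbp1 (−0.26 to 0.61), Herpud1 (−0.23 to 0.36) and Dnajb9 (−0.65 to 0.30), which had few reads, were wider. Against vehicle, the 4 transcripts that passed did not pass at 3 µM (0.00825% of all genes did), at 0.014 ± 0.13 (FDR 0.984) for Hsp90b1, 0.25 ± 0.13 (FDR 0.567) for Hspa5, 0.26 ± 0.14 (FDR 0.588) for Canx and −0.02 ± 0.12 (FDR 0.974) for Pdia3, again log2 fold changes by edgeR. In vehicle, Hsp90b1 was at 517, 577 and 619 CPM and Pdia3 at 465, 427 and 452 CPM. For Hsp90b1 all 9 libraries of the lower doses lay below all 3 of vehicle, and for Pdia3 1 of the 9 (A27) did not. The lower doses and vehicle did not overlap for 2.53% of all genes.

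The share of reads outside genes moved with this contrast, at 20.8% to 21.7% in the 3 µM libraries and 20.9% to 22.2% in vehicle, against 18.7% to 20.4% at the lower doses. With that share as a covariate none of the 10 passed, with log2 fold changes of 0.31 for Hsp90b1 and 0.41 for Hspa5 and larger errors, and 30 genes passed in all. Its part in the difference was not tested. Without A16 or without A18 none of the 10 passed, without A24 or A25 there was 1, without A19, A21, A23 or A26 there were 2, and without A17 there were 4. The shares of all genes that passed in these refits are not given here, so a loss particular to the 10 cannot be told from a general one. Across all 4 doses at 24 h, 5 of the 10 had an unadjusted p under 0.05 (14.5% of all genes) and none passed an FDR of 0.1 (1.93% of all genes). At 6 h, 3 µM did not separate Hspa5, Hsp90b1, Canx or Pdia3 from the lower doses, with intervals of −0.24 to 0.22, −0.21 to 0.20, −0.39 to 0.086 and −0.15 to 0.29.

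**Figure D2:**
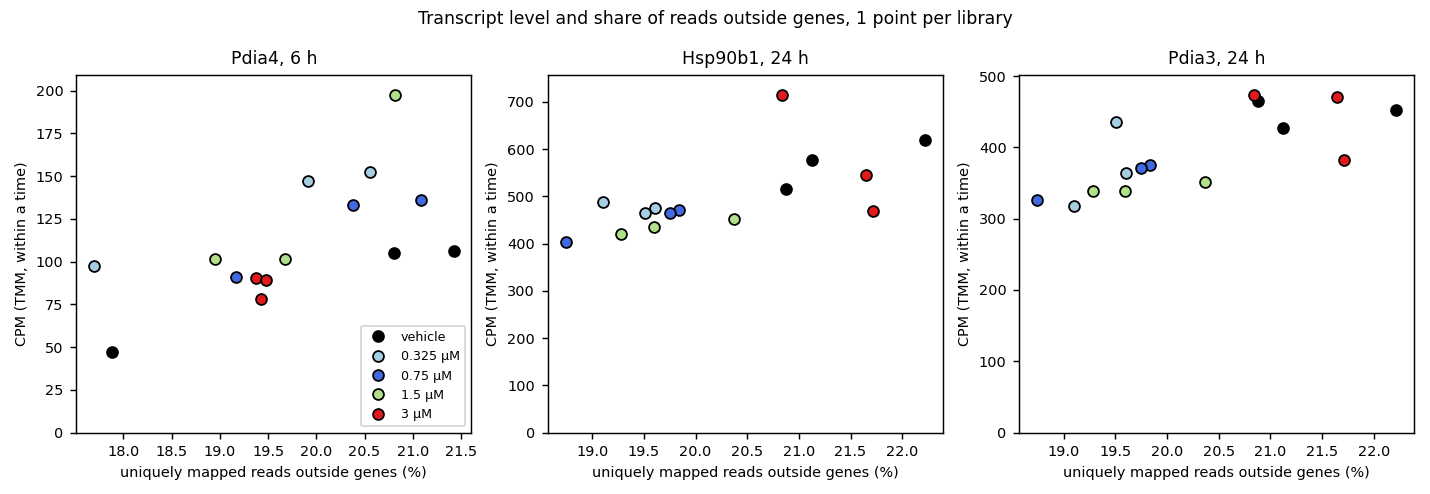
Level in CPM against the percentage of uniquely mapped reads outside genes, 1 point per library coloured by dose, for Pdia4 at 6 h and for Hsp90b1 and Pdia3 at 24 h. The 3 µM libraries (red) and vehicle (black) at 24 h lie at 20.8% or more, to the right of the lower doses, and A3 is the vehicle point at 17.9% with 46.95 CPM of Pdia4.

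Finally, the levels after 24 h were compared with those after 6 h. Hspa5 and Herpud1 were lower at 24 h in vehicle and in CBD-treated cells, and Hsp90b1, Pdia3, Pdia6, Canx and Xbp1 passed in CBD-treated cells, where 12 libraries of each time were compared with 12 rather than 3 with 3. In vehicle, only Hspa5 of the 10 passed when A3 was left out. Whether the change over time differed between CBD and vehicle is the test of the shift given above, which none of the 10 passed. Time, the age of the medium and any difference in handling between the 2 harvests cannot be told apart, and levels in this comparison were normalized over all 30 libraries. In vehicle, 4 of the 10 passed, 3 lower and 1 higher, where 26.7% of 12790 genes passed (14.2% lower, 12.5% higher). In the CBD-treated libraries, a comparison added after the values were seen, 7 of the 10 passed and all 7 were lower. There 53.6% of all genes passed and 27.6% were lower, so a call as such is common in this contrast. The median log2 fold change of the 10 was −0.30 in CBD-treated cells and −0.21 in vehicle, beside −0.010 and −0.025 over all genes. The vehicle and the CBD-treated comparisons share no library.

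Hspa5 was at 5219.8, 5621 and 4000.0 CPM in the vehicle libraries at 6 h and at 2744, 3831 and 3177 CPM at 24 h. All 3 libraries of 24 h lay below all 3 of 6 h, and the log2 fold change was −0.61 ± 0.14 (edgeR FDR 0.00193). Groups that did not overlap were found for 31.8% of all genes in this comparison. In the 12 CBD-treated libraries of each time, the lowest, median and highest levels were 4063, 4880.5 and 5877 CPM at 6 h and 2618, 3299.5 and 4188 CPM at 24 h. Of the 12 libraries at 24 h, 11 lay below the lowest of 6 h, and the log2 fold change was −0.59 ± 0.07 (edgeR FDR 8.96e-09), close to that in vehicle.

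Hsp90b1 fell in CBD-treated cells from 545, 639 and 715 CPM (lowest, median, highest) to 402, 461 and 692 CPM, with a log2 fold change of −0.42 ± 0.061 (edgeR FDR 4.97e-07). At 24 h, 11 of the 12 libraries lay below the lowest of 6 h, and the exception was A16. In vehicle the same transcript changed by −0.21 ± 0.12 and did not pass (edgeR FDR 0.237). All 3 vehicle libraries of 24 h lay below all 3 of 6 h, in a comparison where 31.8% of all genes did not overlap. The isomerase transcript Pdia3 fell by 0.37 ± 0.063 in CBD-treated cells (edgeR FDR 6.31e-06), and Pdia6 fell by 0.36 ± 0.067 (edgeR FDR 3.54e-05). For Pdia6, 11 of the 12 libraries of 6 h lay above the highest of 24 h. Canx fell by 0.25 ± 0.074 (edgeR FDR 0.00531), with 7 of 12 libraries of 24 h below all of 6 h. For these transcripts and for Hspa5, the share of all genes separated to a like degree in CBD-treated cells is not given here. In vehicle, the log2 fold changes were −0.068 for Pdia3, −0.21 for Pdia6 and −0.22 for Canx, and none of them passed. For Pdia6 the 3 vehicle libraries of 24 h also lay below the 3 of 6 h.

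Calr stood at like levels at both times. Its lowest, median and highest levels in CBD-treated cells were 1209.6, 1298 and 1555 CPM at 6 h and 1189, 1329.5 and 1556 CPM at 24 h. The ranges overlapped almost fully, and the log2 fold change was −0.0045 with an interval of −0.12 to 0.11. Pdia4 rose in vehicle, from 107, 106 and 47.5 CPM to 140.5, 152 and 133 CPM. All 3 libraries of 24 h lay above those of 6 h, and the log2 fold change was 0.74 ± 0.24 (edgeR FDR 0.0245). Without A3, the low library of 6 h, it was 0.42 (FDR 0.223) and only Hspa5 of the 10 passed. In CBD-treated cells Pdia4 had an interval of −0.28 to 0.19.

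Of the regulators, Herpud1 was at 58.9, 62.4 and 71.1 CPM in vehicle at 6 h and at 38.9, 43.1 and 54.5 CPM at 24 h. The groups did not overlap, and Herpud1 fell by 0.51 ± 0.16 in vehicle on the log2 scale (edgeR FDR 0.0228) and fell by 0.22 ± 0.082 in CBD-treated cells (edgeR FDR 0.0257). Dnajb9 was at 26.1, 21.9 and 38.3 CPM in vehicle at 6 h and at 17.004, 15.9 and 17.5 CPM at 24 h, again without overlap. It fell by 0.80 ± 0.27 (edgeR FDR 0.0279) in vehicle, and the change of −0.24 ± 0.14 in CBD-treated cells did not pass (edgeR FDR 0.149). In vehicle over time, groups did not overlap for 31.8% of all genes. A3 was the highest vehicle library of 6 h for Herpud1 and for Dnajb9, and without A3 neither passed in vehicle. Xbp1 fell by 0.50 ± 0.14 in CBD-treated cells (edgeR FDR 0.00372), from a median of 35.3 CPM to 23.4 CPM, and was at −0.10 ± 0.27 (FDR 0.831) in vehicle. With the outside-gene share in the model, 2 of the 10 (Hspa5 and Herpud1) passed in vehicle.

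**Figure D3:**
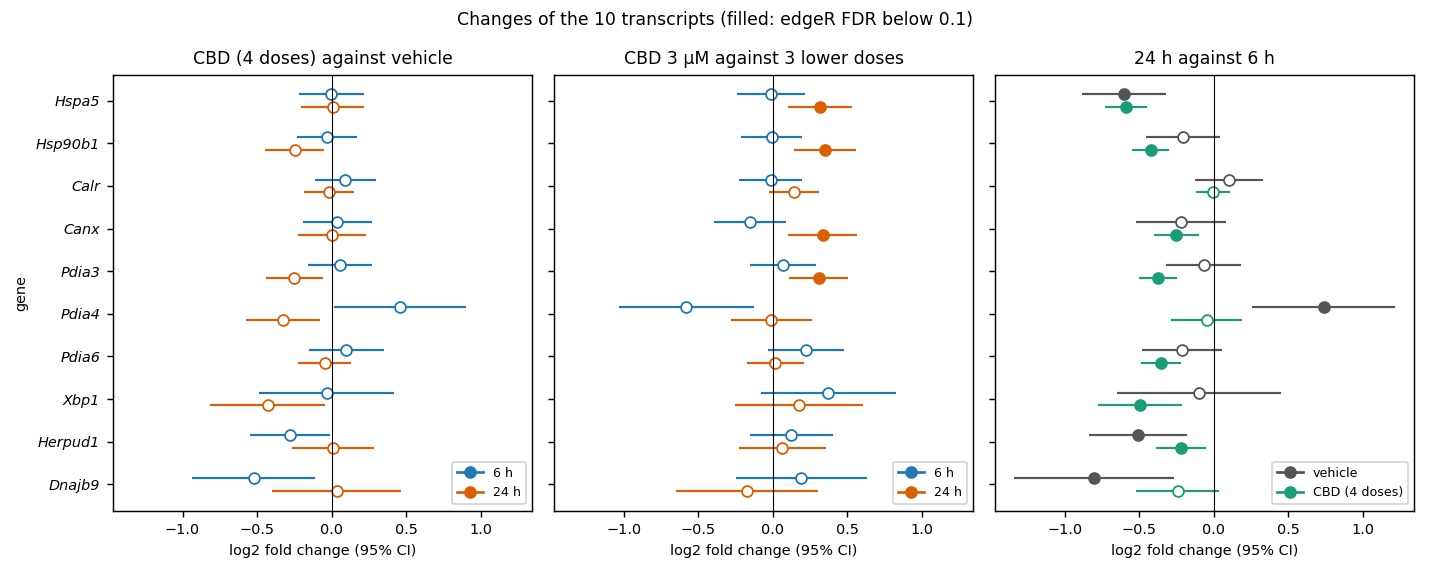
Log2 fold changes with 95% intervals for the 10 transcripts: CBD against vehicle and 3 µM against the 3 lower doses at 6 h (blue) and 24 h (orange), and 24 h against 6 h in vehicle (grey) and CBD-treated libraries (green). Filled points passed an edgeR FDR of 0.1: none for CBD against vehicle, 4 for 3 µM at 24 h, 4 for time in vehicle and 7 for time with CBD.

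The wider ER pathway was followed in 85 further genes in 8 lists, of which 79 were tested. For CBD against vehicle at 6 h, 2 of the 79 passed, both of the PERK branch and both lower, where 0.749% of all genes passed. For this branch the lowest, median and highest levels of a group are given. Ppp1r15a, the phosphatase subunit that reverses the action of PERK, was at 27.5, 30.1 and 43.4 CPM in vehicle and at 8.90, 9.70 and 12.1 CPM at 3 µM. The groups did not overlap, as for 12.9% of all genes at that dose, and the log2 fold change over the 4 doses was −1.57 ± 0.20 (edgeR FDR 3.82e-04). Atf4, the transcription factor of the branch, was at 507, 710.2 and 717 CPM (lowest, median, highest) in vehicle and 402, 427 and 448 CPM at 3 µM. Its log2 fold change over the 4 doses was −0.49 ± 0.12 (edgeR FDR 0.0647). Another gene of this branch, Ddit3 (CHOP), changed by −0.49 ± 0.22 (FDR 0.436) by edgeR. The sensors Ern1 (−0.19 ± 0.17 (FDR 0.78)), Atf6 (−0.20 ± 0.15 (FDR 0.694)) and Eif2ak3 (0.31 ± 0.35 (FDR 0.833)) did not pass. At 24 h none of the 79 passed for CBD against vehicle and 3 had an unadjusted p under 0.05, against 6.73% of all genes.

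For 3 µM against the lower doses at 24 h, 10 of the 79 passed, 5 higher and 5 lower. This is near the share of all genes that passed in this contrast (10.5%), so the genes named next are a description of the lists. Atf4 was higher by 0.33 ± 0.11 (edgeR FDR 0.0652). Of the subunits of the translocon and signal peptidase, Spcs3 was higher by 0.64 ± 0.16, while Spcs1 differed by −0.41 ± 0.11 and Sec61b by −0.46 ± 0.13. The genes that were lower included Calu, which encodes a calcium-binding protein of the secretory path (−0.64 ± 0.15), and Ganab, a glucosidase that trims glycoproteins (−0.46 ± 0.12). Ube2g2, a ubiquitin-conjugating enzyme of ER-associated degradation, was also lower (−0.77 ± 0.21). Neither of the lists of luminal chaperones and of oxidoreductases (11 tested genes each) had a gene that passed. The median log2 fold change over the 79 was −0.049 and that of the 10 described above was 0.16, beside 0.0053 over all genes. With the covariate none of the 79 passed.

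For 24 h against 6 h, 26 of the 79 passed in vehicle (9 higher, 17 lower), where 26.7% of all genes passed. In CBD-treated cells 52 passed (15 higher, 37 lower), where 53.6% of all genes passed, 26% higher and 27.6% lower, and the counts of single lists stand beside these shares. All 4 stress sensors were lower in CBD-treated cells. Their log2 fold changes were −0.55 ± 0.12 for Ern1, −0.42 ± 0.10 for Atf6 and −1.16 ± 0.24 for Eif2ak3. In vehicle Ern1 (−0.83 ± 0.23 (FDR 0.0102)) and Atf6 (−0.71 ± 0.19 (FDR 0.00689)) passed and Eif2ak3 (−0.88 ± 0.49 (FDR 0.215)) did not, all by edgeR. Of the 14 translocon and signal peptidase genes 9 were lower and none higher in CBD-treated cells, with Spcs3 at −0.94 ± 0.11. Of 16 tested genes of ER-associated degradation 8 were lower and 2 higher, with Selenos at −0.62 ± 0.071. Among luminal chaperones and cofactors 5 were lower and 2 higher, with −0.85 ± 0.11 for Manf, a secreted factor of the stressed ER, and −0.47 ± 0.06 for Dnajc3, an inhibitor of PERK. The ER calcium list went the other way, with 5 higher and 1 lower of 9.

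The list of transcription factors and the PERK branch was mixed over time. In CBD-treated cells Ddit3 rose by 0.68 ± 0.14 and Atf4 fell by 0.23 ± 0.076, and the ER-bound transcription factor Creb3l1 fell by 1.02 ± 0.13. In vehicle Atf4 changed by −0.60 ± 0.15 (edgeR FDR 0.00401) and Trib3, of the same list, by −1.12 ± 0.24 (edgeR FDR 0.00114). Ddit3 was at 0.38 ± 0.28 in vehicle and did not pass (edgeR FDR 0.356). Ppp1r15a fell in vehicle by 1.42 ± 0.31 (edgeR FDR 0.00126) and was at 0.14 ± 0.17 (FDR 0.524) in CBD-treated cells. Outside this list, Ganab rose in both, by 0.96 ± 0.16 in vehicle and 0.78 ± 0.079 with CBD. The 12 cytosolic chaperones, taken for comparison, showed 1 higher and 5 lower in vehicle and 3 higher and 2 lower with CBD. Their median log2 fold change with CBD was 0.11, beside −0.30 for the 10 ER transcripts, and the difference between the lists was not tested.

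**Figure D4:**
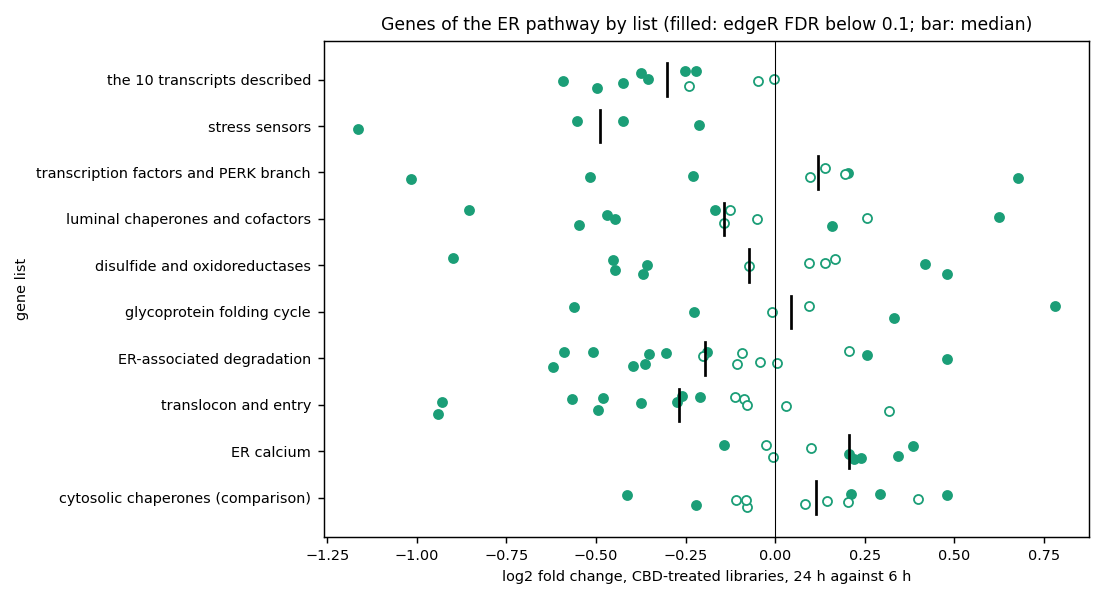
Log2 fold change of 24 h against 6 h in CBD-treated libraries for each tested gene (points), by list, with the median as a bar. Filled points passed an edgeR FDR of 0.1. The 10 transcripts lie between −0.59 and −0.0045, the 4 stress sensors are all below 0 and the ER calcium list has its median above 0.

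The 10 transcripts did not vary as 1 block. Over the 30 libraries the 45 pairs had a median Pearson r of log2 CPM of 0.30, from −0.51 to 0.82, and 34 were above 0. The libraries share the difference between the times, and after the group means were taken out the median was 0.0049, with 23 of 45 above 0. Against the mean of the other 9, with the group means left in, Hsp90b1 had r = 0.90, Hspa5 0.81 and Pdia3 0.79, while Calr had 0.044 and Pdia4 −0.19. With the group means taken out, r was 0.69 for Hsp90b1, 0.24 for Hspa5, 0.36 for Pdia3, 0.13 for Calr and −0.0098 for Pdia4. The genes most like the mean of the 10 over the 30 libraries, group means left in, were Nap1l1 (r = 0.94), Arpc2 (0.93), mt-Rnr1 (0.92), Pabpc1 (0.92) and Hoxc6 (0.92). With the group means taken out they were mt-Tq (0.81), Upf1 (0.79), Arglu1 (0.77), Nap1l1 (0.76) and Iars2 (0.74). None of these belongs to the ER lists.

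Several of the loci share ground with other genes on GRCm38. The 3′ end of Hsp90b1 (chr10:86690209-86705509, minus strand) overlaps the pseudogene 1810014B01Rik, and that of Pdia6 (chr12:17266545-17284770, plus strand) overlaps Atp6v1c2, both on the opposite strand. The strand setting of the counting is not given in the sources used here, so reads of these pairs cannot be told apart without it. Calr (chr8:84841850-84846934, minus strand) has a named pseudogene, Calr-ps, and reads that aligned to several places were not counted. Hspa5 (chr2:34771970-34777547, plus strand), Canx (chr11:50293961-50325673, minus strand) and Xbp1 (chr11:5520659-5525893, plus strand) overlap no other gene. Pdia3, Pdia4, Herpud1 and Dnajb9 overlap another gene away from their 3′ ends.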

How the data were processed

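Libraries were made by the authors with the QuantSeq 3′ mRNA-Seq kit, which gives 1 fragment per transcript. Per the submitters' processing notes, quality was checked with FastQC 0.11.9, reads were mapped with STAR 2.7.5c and counted with HTSeq 1.99.2, and the paper names GRCm39 as the genome. The deposited values are raw counts of reads per Ensembl gene, with no normalization, 1 table per library. Summary lines that name no gene were left out of library sizes, and the reads outside genes among them (17.7% to 22.2% of uniquely mapped reads) served as a covariate. Groups came from the library titles. Whether the 3 libraries of a group came from separate cultures is not stated, so p-values measure the spread between these libraries, which may be technical.

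The counts were fitted with edgeR 4.0.16 in R 4.3.3 (filterByExpr, TMM, quasi-likelihood F-test) for each time with all 15 libraries, and with all 30 for comparisons across times, which tested 12790 genes. The Benjamini-Hochberg adjustment covered every gene in a test, and the threshold was 0.1. CPM shown use TMM library sizes, within a time or over all 30 libraries. The genes and lists were chosen with earlier results of these data known. All 10 genes are named, and of the 85 others 6 fixed genes and at most 6 per comparison by p. Alternatives were DESeq2 1.42.0, RLE normalization, no filter, at least 10 counts in every library, the covariate, a fit without mitochondrial genes, a fit of the 2 groups alone, 1 fit of all libraries, and each library left out. The comparison of 24 h with 6 h in CBD-treated libraries was added after the values were seen. The steps were tested on simulated data. Gene symbols were found for 51948 of 56941 IDs. Gene positions are from GENCODE M21 on GRCm38, an older build than that of the counts, and promoter windows from RefSeq on GRCm38.p6, where all 10 genes matched.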

Additional observations from a re-analysis of the deposited data

Results flagged for a closer look

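The effect of CBD on Ppp1r15a, which is not one of the 10 transcripts but belongs to the PERK branch, differed between the times by a test of the difference itself. On the log2 scale the effect was 1.56 higher at 24 h than at 6 h (SE 0.35, edgeR FDR 0.0656 over 12790 genes). With the outside-gene share in the model it did not pass. None of the 10 transcripts was picked out by this test.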

How the results depend on the processing

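No paired analysis was possible because each library has its own number, A1 to A30, with none in common between groups. The counts of calls in this section are given without the share of all genes that passed in the same fit. They describe how stable the calls were, and a change particular to these genes cannot be told from a general one. For the 10 transcripts, leaving out the filter on low counts gave 1 call in place of 0 for CBD against vehicle at 6 h with the doses together, at 0.325 µM and at 1.5 µM, for 1.5 µM at 24 h and for the difference between the times, and 2 calls in place of 0 among the 4 doses at 24 h. The covariate (share of reads outside genes) gave 1 call in place of 0 for CBD at 6 h, at 0.325 µM and at 1.5 µM, 0 in place of 4 for 3 µM against the lower doses at 24 h, and 2 in place of 4 for vehicle over time. For 1.5 µM at 24 h, DESeq2 and the fit of only the 2 groups each gave 1 call. One fit of all 30 libraries gave 2 in place of 4 for 3 µM against the lower doses at 24 h. With the covariate, Canx for CBD against vehicle at 24 h turned to −0.15, and Xbp1 for vehicle over time to 0.17. The cause was not tested.

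With each library left out in turn, the calls ranged from 0 to 4 among the doses at 24 h (4 without A17), from 0 to 4 for 3 µM against the lower doses, from 1 to 5 for vehicle over time (1 without A3) and from 7 to 8 for CBD over time, and stayed at 0 in the other comparisons. The log2 fold changes that changed sign ranged from −0.10 to 0.15 for Hspa5 at 24 h, from −0.090 to 0.12 for Canx at 6 h and −0.13 to 0.18 at 24 h, from −0.074 to 0.14 for Pdia3 at 6 h, and for 3 µM against the lower doses at 24 h from −0.048 to 0.41 for Xbp1 and −0.57 to 0.081 for Dnajb9.

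Of the 79 further genes, the filter left out gave 4 calls in place of 2 for CBD at 6 h, 2 in place of 1 at 0.325, 1.5 and 3 µM, 1 in place of 0 at 0.325 and 0.75 µM at 24 h and 7 in place of 3 among the doses at 24 h. The covariate gave 9 in place of 2 for CBD at 6 h, 5 in place of 1 for the lowest dose of 6 h (4 for 1.5 µM, 3 for 0.75 µM, 2 for 3 µM), and 0 for the doses at 24 h, for 3 µM against the lower doses and for the difference between the times. DESeq2 gave 2 in place of 1 at each dose of 6 h and for the difference between the times, and 8 among the doses at 24 h. The fit of only the 2 groups gave 0 at 0.325, 0.75 and 1.5 µM at 6 h and 1 in place of 0 at 0.75 µM at 24 h. One fit of all libraries gave 2 at 0.325 µM at 6 h and 0 among the doses at 24 h. With each library left out, these counts ranged from 1 to 4 for CBD at 6 h, 0 to 2 at 0.325 and 1.5 µM, 0 to 3 at 0.75 and 3 µM, 0 to 1 at 3 µM at 24 h, 0 to 9 among the doses, 1 to 20 for 3 µM against the lower doses (1 without A16) and 0 to 1 for the difference between the times. They ranged from 19 to 27 for vehicle over time and from 47 to 53 for CBD over time. The shares of all genes that passed in these fits are not given here. Whether a change in a count is particular to the 79 cannot be told from it. The low reads of Dnajb9 and Xbp1 limit their intervals.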
